A study of Arabidopsis thaliana with 2 samples.

Results

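The transcripts of 48 Arabidopsis thaliana genes for proteins of the cytosolic small ribosomal subunit were followed in developing seeds. They were taken by a list of identifiers, out of 33602 gene models listed. They are paralogs that encode 19 proteins of the 40S subunit, Sa, S2, S3, S3a, S4 to S11, S13, S14, S16, S18, S19, S21 and S24. All 48 identifiers were found in both deposited tables. The reference annotation gives a product named after a ribosomal protein, or after a fold or domain of one, for 46 of the 48, and calls AT3G48930 and AT4G30800 (S11) OB-fold proteins.

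The study sequenced 2 libraries of whole developing seeds at 10 DAP, the age as labelled. One genotype, OLEOp:GmPSKγ1, carried the soybean phytosulfokine precursor gene GmPSKγ1 behind a promoter labelled OLEOp. The other, OLEOp:GmPSKγ1tc, carried the construct that the submitters name as the control, behind the same promoter. RNA of 3 individual lines was pooled into 1 library per genotype, so the spread between lines or plants is not known and no test between the genotypes can be made. What the letters tc stand for is not given in the labels, and no ecotype is stated. OLEOp, by its name an oleosin promoter, would drive the transgene in cells that make oil bodies, and whole seeds also hold other cell types. Values are FPKM as deposited, which scale the reads of a gene to its length and to the size of the library. Library sizes of 16.4 M reads (GmPSKγ1) and 15.3 M reads (control) follow from the steps between low values. Where a pair of values is given without labels, GmPSKγ1 stands first.

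The small ribosomal subunit binds the messenger RNA and is where its codons are read. In plants each of its proteins is encoded by a small family of active genes, unlike in animals, where most come from a single active gene. Ribosomal protein transcripts are known to be abundant in growing and dividing cells, and their promoters are known to carry 2 short motifs, called site II and the telo box. Phytosulfokine is a sulfated peptide hormone known to promote cell growth.

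Transcripts of the small subunit genes were slightly but broadly more abundant in the GmPSKγ1 library. Of the 46 genes that reached a mean of 1 FPKM, 45 had a higher value in GmPSKγ1 and 1 had a lower value. Of all 17816 genes at this level, 57.9% were higher and 42.1% lower. The median log2 ratio of FPKM + 1, GmPSKγ1 over control, was 0.36 for the 46 genes, or 1.28-fold, beside 0.05 over all genes. In whole seeds, more cells rich in ribosomes and more of these transcripts per cell cannot be told apart. At least 1.2-fold higher values were seen for 36 of the 46, beside 19.2% of all genes, and none was 1.2-fold lower, beside 11.1%. On this scale 2 of the 46, AT5G15200 among them, were at least 1.5-fold higher, beside 3.13% of all genes, and none was 1.5-fold lower, beside 2.68%. The rare AT3G04770 also exceeded 1.5-fold in plain FPKM, which the added 1 FPKM hides. None of the 46 reached 2-fold in either direction, beside 0.41% of all genes higher and 0.819% lower. Among the 2101 genes with 50 FPKM or more on average, which are closer to these in abundance, 69.8% were higher, 26% by at least 1.2-fold, and the median was 0.12. All 42 small subunit genes at this level were higher, 35 of them by at least 1.2-fold. Rescaling the libraries without the 50 most abundant genes left 42 of 46 higher, beside 45.7% of all genes. The median was then 0.28, beside -0.026 over all genes.

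**Figure D1:**
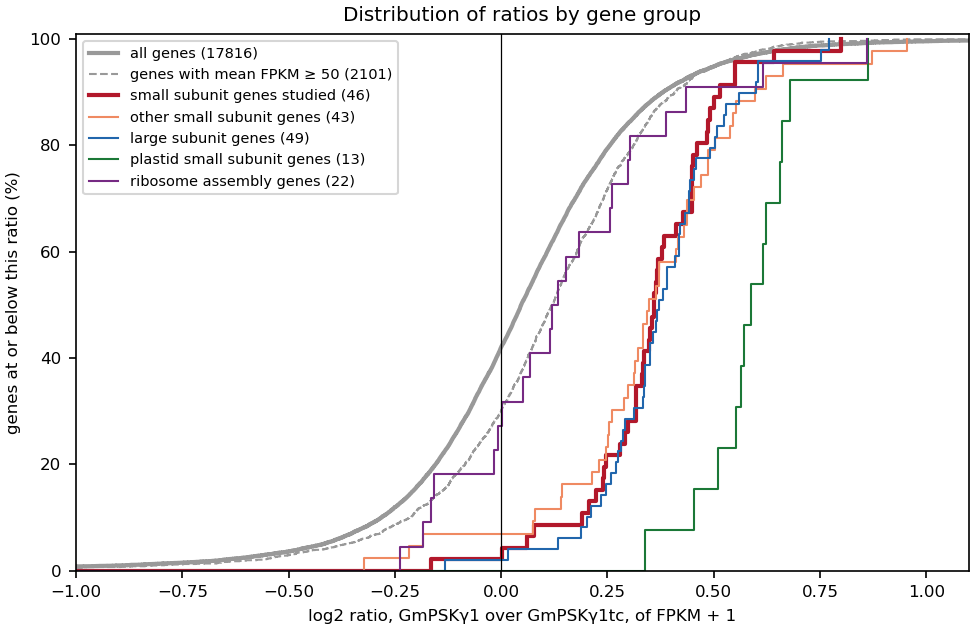
Share of genes (vertical axis, percent) at or below each log2 ratio of FPKM + 1, GmPSKγ1 over GmPSKγ1tc (horizontal axis), 1 line per gene group with the number of genes in brackets. The small subunit genes (thick red line, median 0.36) lie to the right of all genes (thick grey line, median 0.05) and close to the large subunit genes (blue line, median 0.37).

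Together the measured genes held 1.54% of summed FPKM in GmPSKγ1 seeds and 1.18% in control seeds, a ratio of 1.303 between their sums of 10588 and 8128 FPKM. The median level over all 48 was 206 FPKM in GmPSKγ1 seeds and 162 in control seeds, where the medians over all measured genes were 11.7 and 11.5 FPKM. In GmPSKγ1, 39 of the 48 were among the 1000 most abundant genes, and 37 were in the control. At the other end, 6 genes had less than 30 FPKM in both libraries. They were AT1G59359, listed at 0 in both, AT5G59240, AT3G04770, AT4G30800, AT3G57490 and AT5G15520.

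The counting error of the ratios was assessed next. An exact 95% interval of the ratio was computed from estimated reads for the 44 measured genes whose model overlaps no other. It lay above 1 for 41 of them and below 1 for none, beside 23.6% and 14.9% of all such genes, and 54% above 1 among those of at least 50 FPKM. These intervals cover counting error only, since each genotype has 1 pooled library. They may also be too narrow for that, since sequenced reads that carry no molecular identifier may be copies of 1 molecule. The 3 genes whose interval held 1 were AT3G57490, AT5G15520 and AT4G30800, all of low abundance.

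**Figure D2:**
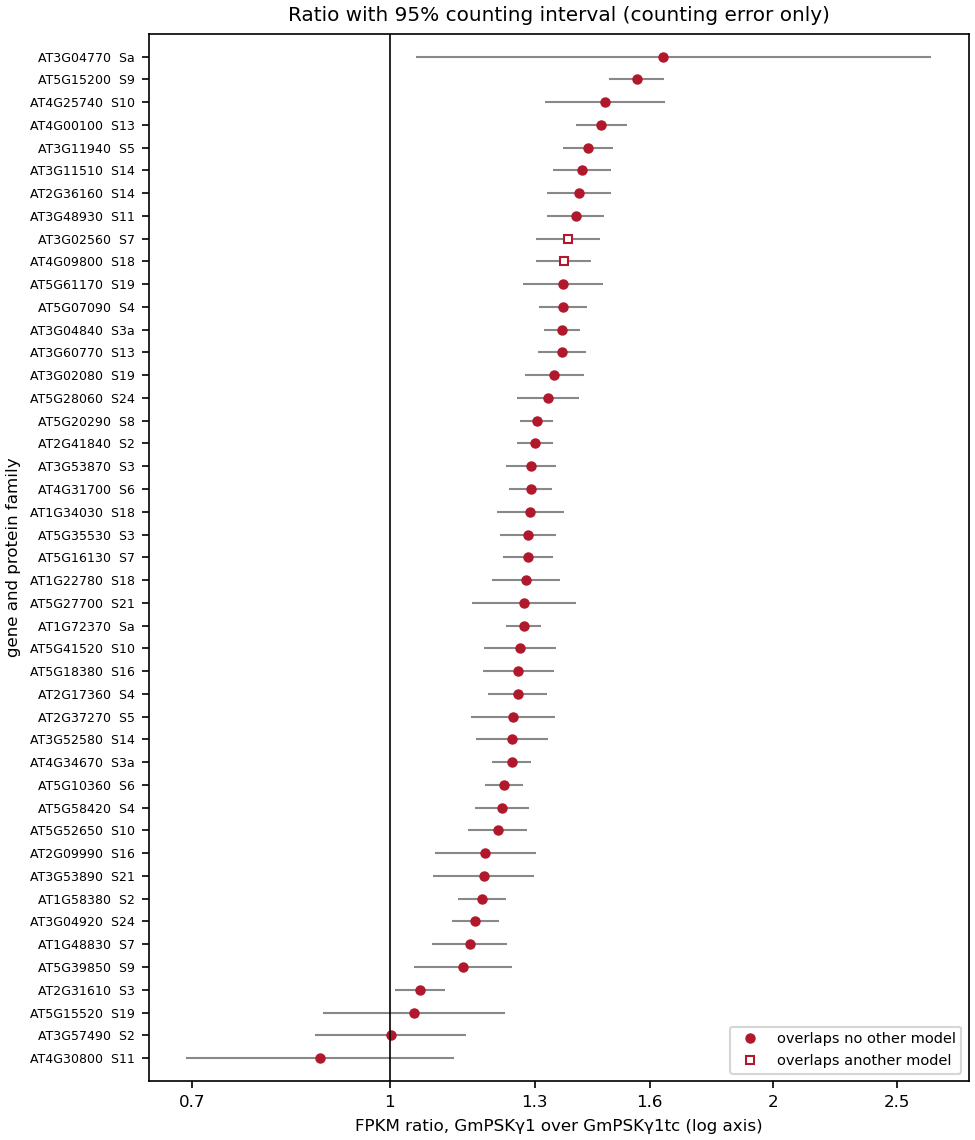
Ratio of FPKM, GmPSKγ1 over GmPSKγ1tc (horizontal log axis), for 45 of the 46 measured small subunit genes (vertical axis), with bars for the 95% counting interval. Most points lie between 1.1 and 1.5, the rare AT3G04770 is the highest at 1.64 with a wide interval, and AT4G30800 at 0.882 is the only gene to the left of 1.

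The promoters of the genes were read from the reference genome for the motifs known from ribosomal protein genes. The window ran from 250 bases before the annotated gene start to 50 bases after it, in the RefSeq annotation of TAIR10.1. Site II was searched as TGGGCC or TGGGCT and the telo box as AAACCCTA, each on both strands. TGGGCC can overlap its own reverse, GGCCCA, and both are then counted, and a site II match can share a base with a telo box. A site II match was present in 33 of 48 windows (68.8%), beside 21.7% of 27443 protein-coding promoters and 31.9% of those of genes with at least 50 FPKM. A telo box was present in 27 (56.3%), beside 6.22% of all and 8.37% of the abundant genes. Both were present in 22 (45.8%), beside 2.20% and 5.83%. A match is a run of letters, not a shown binding site.

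The sequences below are promoters of the most abundant gene, its rare paralog, 2 S11 genes and 2 further genes with large ratios. Of the S11 genes, AT3G48930 was higher in GmPSKγ1, and the lower value of AT4G30800 was within counting error of a ratio of 1. Each sequence runs 5′ to 3′ in the direction of the gene and ends at the last base before the annotated start. Each is 250 bases, or less where the exon of a neighbouring gene would be reached. Capitals mark site II and telo box matches, in either orientation.
S8, AT5G20290, chr5:6853107-6853298, minus strand: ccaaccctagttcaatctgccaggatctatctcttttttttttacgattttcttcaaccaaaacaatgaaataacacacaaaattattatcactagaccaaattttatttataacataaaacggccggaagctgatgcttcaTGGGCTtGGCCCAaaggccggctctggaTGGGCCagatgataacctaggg
S8, AT5G59240, chr5:23903768-23903871, minus strand: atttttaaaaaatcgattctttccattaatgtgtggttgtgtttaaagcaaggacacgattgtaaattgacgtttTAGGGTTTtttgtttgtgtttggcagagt
S11, AT3G48930, chr3:18142282-18142531, minus strand: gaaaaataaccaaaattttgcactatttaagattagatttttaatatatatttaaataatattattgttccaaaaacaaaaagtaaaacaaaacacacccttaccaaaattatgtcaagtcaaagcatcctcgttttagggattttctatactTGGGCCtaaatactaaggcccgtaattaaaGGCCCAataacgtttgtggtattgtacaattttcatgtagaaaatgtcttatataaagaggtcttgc
S11, AT4G30800, chr4:15000710-15000959, plus strand: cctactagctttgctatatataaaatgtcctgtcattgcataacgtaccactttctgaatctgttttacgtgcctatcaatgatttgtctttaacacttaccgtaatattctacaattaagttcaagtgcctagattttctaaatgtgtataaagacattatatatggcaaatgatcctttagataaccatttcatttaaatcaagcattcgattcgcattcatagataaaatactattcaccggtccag
S9, AT5G15200, chr5:4936430-4936679, minus strand: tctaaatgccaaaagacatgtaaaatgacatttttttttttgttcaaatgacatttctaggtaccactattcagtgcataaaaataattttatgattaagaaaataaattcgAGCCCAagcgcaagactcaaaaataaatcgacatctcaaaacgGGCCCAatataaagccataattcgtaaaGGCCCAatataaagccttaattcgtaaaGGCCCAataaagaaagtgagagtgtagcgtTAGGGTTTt
S5, AT3G11940, chr3:3779546-3779795, minus strand: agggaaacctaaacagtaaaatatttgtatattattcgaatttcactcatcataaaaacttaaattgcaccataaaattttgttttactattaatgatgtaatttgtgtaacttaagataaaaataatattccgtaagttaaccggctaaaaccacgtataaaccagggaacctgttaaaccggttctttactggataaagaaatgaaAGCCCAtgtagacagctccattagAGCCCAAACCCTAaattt
The stretches printed stop before the gene start, so telo boxes that reach past it are not in capitals. Over the whole window, AT5G20290 held 3 site II matches and 1 telo box, and AT5G59240 held 1 telo box. AT3G48930 held 2 site II matches and 1 telo box, and neither motif was found in AT4G30800. The deposited model of AT4G30800 starts at 15001134, downstream of the annotated start used here. The bases just before that deposited start were therefore not searched. AT5G15200 held 4 site II matches and 1 telo box, and AT3G11940 held 2 of each. Not all genes with large ratios are shown. AT4G00100 and AT4G25740, each with a log2 ratio of 0.55, exceeded AT3G11940 at 0.52, and neither motif was found in AT4G00100.

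Site II matches lay mainly just before the gene start and telo boxes around it. The 79 site II matches had a median distance of -46 bases and ranged from -135 to 42. The 29 telo boxes had a median distance of 6 bases, and 27 of them lay within 50 bases of the start. Median FPKM in genes with both motifs was 244 in GmPSKγ1 and 181 in the control, and in genes without both it was 187 and 148. The median log2 ratio was 0.41 in the 21 measured genes with both motifs and 0.33 in the 25 others. Both motifs were also present in 54.5% of 22 genes that assemble ribosomes, whose median log2 ratio was 0.13. For 51 listed genes of the large subunit these values were 43.1% and 0.37. They were 28.8% and 0.35 for the other listed small subunit genes, and 15.4% and 0.59 for 13 plastid small subunit genes. These are descriptions, and a link between motifs and ratios was not tested. In 10 genes neither motif was found in the window around the annotated start, and all 10 were measured. None of them has a deposited model with the same start and end as the annotation. Bases just before the deposited start may therefore not have been searched in some of them. Of these 10, 9 were higher in GmPSKγ1, beside 57.9% of all genes, and AT4G30800 was lower, within counting error. Their median log2 ratio was 0.30, with a range from -0.17 for AT4G30800 to 0.55 for AT4G00100 (S13).

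**Figure D3:**
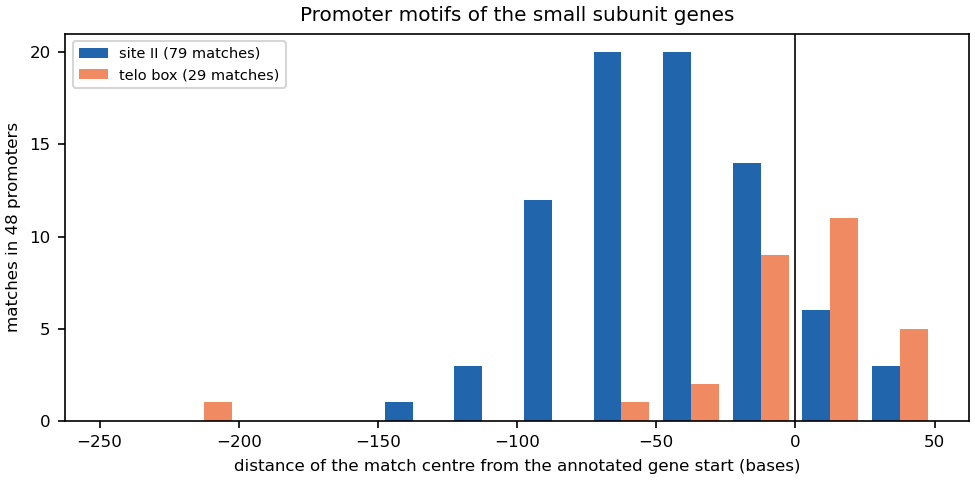
Number of site II (blue) and telo box (orange) matches in the promoter windows of the 48 small subunit genes (vertical axis) by distance of the match centre from the annotated gene start, in bins of 25 bases (horizontal axis). Site II matches stand mostly before the start, with a median of -46 bases, and telo boxes around it, with a median of 6 bases.

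The genes are described below by the place of their proteins in the subunit, which is known from ribosome structures of yeast and other species. Sa, S2 and S21 lie next to each other in those structures, behind the platform. AT1G72370 (P40; chromosome 1, 27242943 to 27244931), which encodes Sa, had 477 FPKM in GmPSKγ1 seeds and 374 in control seeds, a ratio of 1.27 (counting interval 1.24 to 1.32). Its paralog AT3G04770 (RPSAb) had 2.77 and 1.69 FPKM on about 55 and 31 reads, a ratio of 1.64 with a wide interval of 1.05 to 2.66. P40 therefore held 99.4% of the family in GmPSKγ1 and 99.6% in the control.

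S2 helps to form the channel through which messenger RNA enters. AT2G41840 had 428 and 329 FPKM, a ratio of 1.301. AT1G58380 (XW6) had 253 and 214 FPKM, a ratio of 1.18. AT3G57490 had 25.7 FPKM in both libraries, a ratio of 1.002 (counting interval 0.874 to 1.15), so this paralog was not distinguishable between them at this depth. It was lower in GmPSKγ1 when the libraries were rescaled without the 50 most abundant genes (log2 ratio -0.08) or by the median ratio (-0.05). AT1G59359 was listed at 0 in both libraries. Every stretch of 50 bases in its exons also occurs in other genes, AT1G58380, AT1G58684 and AT1G58983, and its coding sequence is 97.5% identical to that of AT1G58380. AT1G58684 and AT1G58983 were listed at 0 as well. The value of AT1G58380, with 27.7% of its stretches shared, is therefore uncertain, and a 0 for its near copies does not show that they are silent. The S21 genes AT3G53890 and AT5G27700 had 111 and 108 FPKM in GmPSKγ1 seeds, compared with 93.8 and 84.6 in control seeds.

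The platform proteins S3a, S13 and S14, which lie near the exit of the messenger RNA, had the largest median of the 4 regions. Their median log2 ratio was 0.45, and all 7 genes were at least 1.2-fold higher, beside 19.2% of all genes. AT3G04840 (S3a; chromosome 3, 1329665 to 1331617) had 522 FPKM in GmPSKγ1 seeds and 382 in control seeds, a ratio of 1.37 (counting interval 1.32 to 1.41). The other S3a gene, AT4G34670, had 398 and 319 FPKM. AT4G00100 (RPS13A; chromosome 4, 37084 to 38312), whose mutants are known for pointed leaves, had 383 and 261 FPKM, a ratio of 1.47 (counting interval 1.40 to 1.54). Its paralog AT3G60770 had 339 and 248 FPKM. In the S14 family AT3G11510 had 257 and 182 FPKM, a ratio of 1.42 (counting interval 1.34 to 1.49). AT2G36160 had 236 and 167 FPKM, and AT3G52580 had 160 and 128 FPKM. The difference between regions was not tested, and the medians of the head (0.36), the body (0.36) and the group behind the platform (0.35) were close to each other.

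The body of the subunit held the only gene with a negative log2 ratio in the values as deposited. Of the S11 genes, AT3G48930 (EMB1080) had 271 and 194 FPKM, a ratio of 1.40 (counting interval 1.33 to 1.47). Its paralog AT4G30800 (chromosome 4, 15001134 to 15002671) had 9.87 and 11.2 FPKM, a ratio of 0.882 (counting interval 0.693 to 1.12) that was within counting error of 1. The S9 pair also differed within the family. AT5G15200 (chromosome 5, 4934883 to 4936408) had 201 and 129 FPKM, a ratio of 1.56 (counting interval 1.49 to 1.64). AT5G39850 had 77.3 and 67.6 FPKM, a ratio of 1.14 (counting interval 1.05 to 1.25). The intervals of the S9 pair did not overlap, and they cover counting error alone.

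AT5G20290 (S8; chromosome 5, 6851452 to 6853066) was the most abundant of the 48 in both libraries, with 661 FPKM in GmPSKγ1 seeds and 507 in control seeds, a ratio of 1.304 (counting interval 1.27 to 1.34). The other S8 gene, AT5G59240, had 0.712 and 0.457 FPKM on about 10 and 6 reads, and a difference was not detectable at this depth (counting interval 0.513 to 5.21). S6 is the protein phosphorylated by S6 kinase downstream of TOR. Its genes AT5G10360 (EMB3010) and AT4G31700 (RPS6) had 412 and 367 FPKM in GmPSKγ1 seeds, compared with 335 and 285 in control seeds, ratios of 1.23 and 1.29. The pair was thus nearly even in level and in ratio.

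The 3 S4 genes were close in level. AT5G07090 had 241 and 176 FPKM, AT5G58420 had 210 and 172 FPKM, and AT2G17360 had 184 and 146 FPKM. In the S7 family AT5G16130 had 291 and 227 FPKM, and AT3G02560, whose model overlaps another, had 143 and 103 FPKM. AT1G48830 had 130 and 113 FPKM, a ratio of 1.16 (counting interval 1.08 to 1.24), the smallest of the S7 genes. The S24 gene AT3G04920 had 315 and 269 FPKM, a ratio of 1.17, while AT5G28060 had 247 and 185 FPKM, a ratio of 1.33.

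All 16 head genes were higher in GmPSKγ1, beside 57.9% of all genes, and 13 of them at least 1.2-fold, beside 19.2%. However, the direction of AT2G31610 and AT5G15520 turned when the libraries were rescaled without the 50 most abundant genes. AT3G11940 (RPS5A; chromosome 3, 3777895 to 3779506), a gene known for strong expression in dividing cells, had 285 FPKM in GmPSKγ1 seeds and 199 in control seeds, a ratio of 1.43 (counting interval 1.37 to 1.497). RPS5B (AT2G37270) had 95.4 and 76.4 FPKM, a ratio of 1.25. AT4G25740 (S10; chromosome 4, 13107250 to 13108827) had 61.3 and 41.6 FPKM, a ratio of 1.47 (counting interval 1.32 to 1.65). It was the rarest of the S10 genes. AT5G52650 had 223 and 184 FPKM, and AT5G41520 (RPS10B) had 153 and 121 FPKM.

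S3 forms part of the entry of the messenger RNA channel, and the ratios of its genes were unequal. AT3G53870 had 281 and 218 FPKM, a ratio of 1.29, and AT5G35530 had 201 and 157 FPKM, a ratio of 1.28. AT2G31610 (chromosome 2, 13450302 to 13451923) had 226 and 214 FPKM, a ratio of 1.06 (counting interval 1.01 to 1.105), and its log2 ratio was -0.003 after rescaling without the 50 most abundant genes. The S18 ratios lay between 1.28 and 1.37. AT4G09800 (RPS18C), whose model overlaps another, had 303 and 221 FPKM. AT1G34030 had 201 and 156 FPKM, and AT1G22780 (PFL, known for a pointed first leaf in the mutant) had 195 and 152 FPKM. In the S19 family AT3G02080 had 252 and 187 FPKM and AT5G61170 had 154 and 113 FPKM. The rare AT5G15520 had 27.5 and 26.4 FPKM, a ratio of 1.04 (counting interval 0.886 to 1.23), and its log2 ratio was -0.02 after the same rescaling. The S16 genes AT5G18380 and AT2G09990 had 189 and 89.9 FPKM in GmPSKγ1 seeds, compared with 150 and 75.6 in control seeds. Their coding sequences are 98.2% identical, so the division of reads between them is uncertain, but both were higher.

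**Figure D4:**
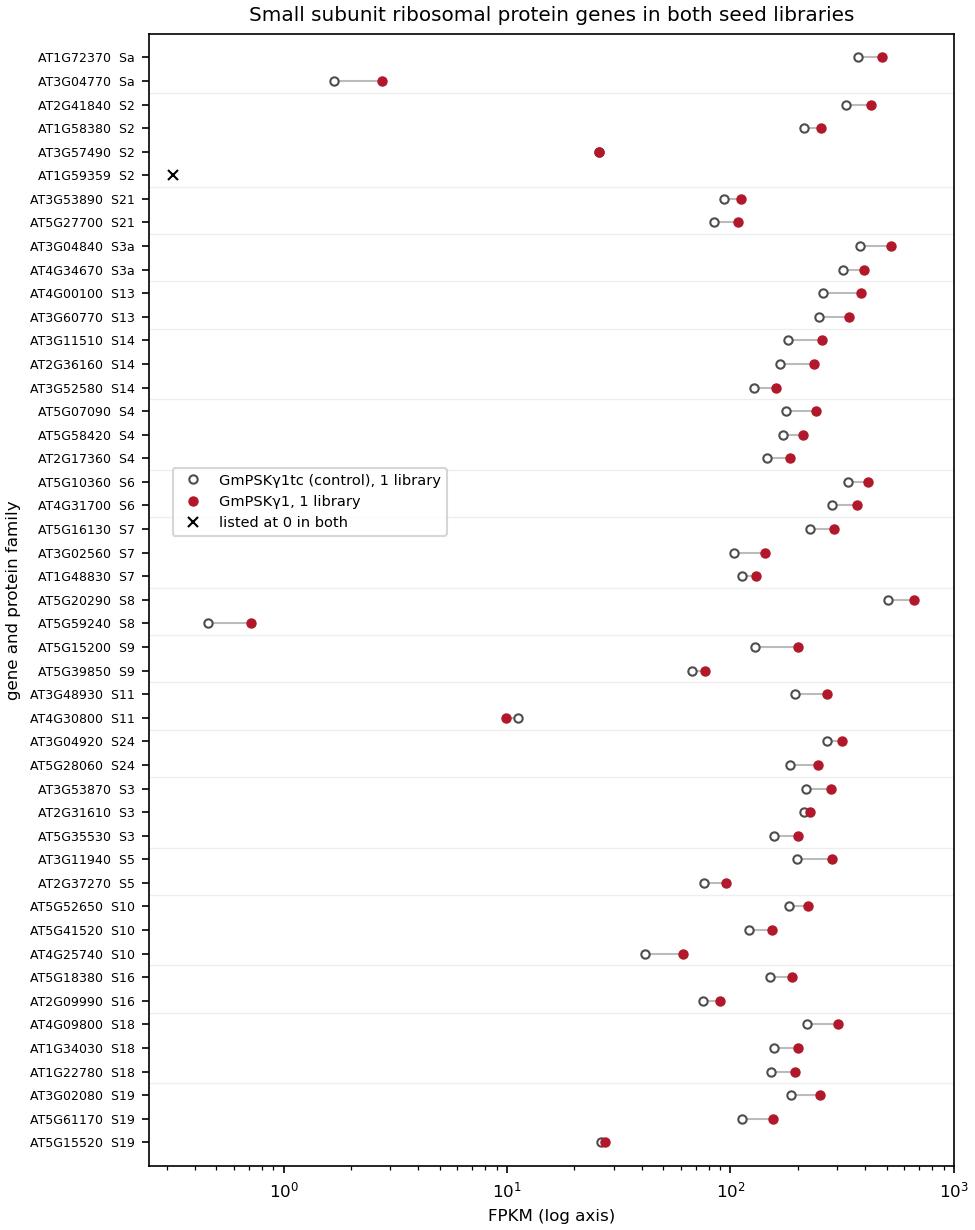
FPKM (horizontal log axis) of 47 small subunit genes (vertical axis, with their proteins) in the GmPSKγ1 library (filled circles) and the GmPSKγ1tc library (open circles), 1 value each. The filled circle lies to the right for all genes drawn with a value except AT4G30800, the circles of AT3G57490 coincide, and AT1G59359 (cross, placed at the left edge) was listed at 0 in both.

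Sums over paralogs depend less on how reads were divided among similar copies. All 19 protein families were higher in GmPSKγ1 after summing, also under each of the 3 rescalings, and the counting interval lay above 1 for each. The ratio of sums was lowest for S3 at 1.204 (709 and 589 FPKM), followed by S21 at 1.23. It was 1.42 for S9 (278 and 196 FPKM) and for S13 (722 and 509 FPKM). Summed levels in GmPSKγ1 ranged from 219 FPKM for S21 to 920 FPKM for S3a, a narrower range than that of the single genes.

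The balance between paralogs was broadly similar in both libraries, with larger shifts in some families. The most abundant paralog was the same in all 19 families, and the median absolute change of a gene's share of its family was 1.77 percentage points. The largest shift was in S9, where AT5G15200 held 72.3% of the family in GmPSKγ1 and 65.5% in the control. In S3, AT2G31610 held 31.9% and 36.4%, and the counting interval of its ratio (1.01 to 1.105) lay below that of AT3G53870 (1.24 to 1.35). In S24, AT3G04920 held 56.0% and 59.2%, and its interval (1.12 to 1.22) lay below that of AT5G28060 (1.26 to 1.41). For 30 of the 48 genes the share changed by less than 2 points.

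**Figure D5:**
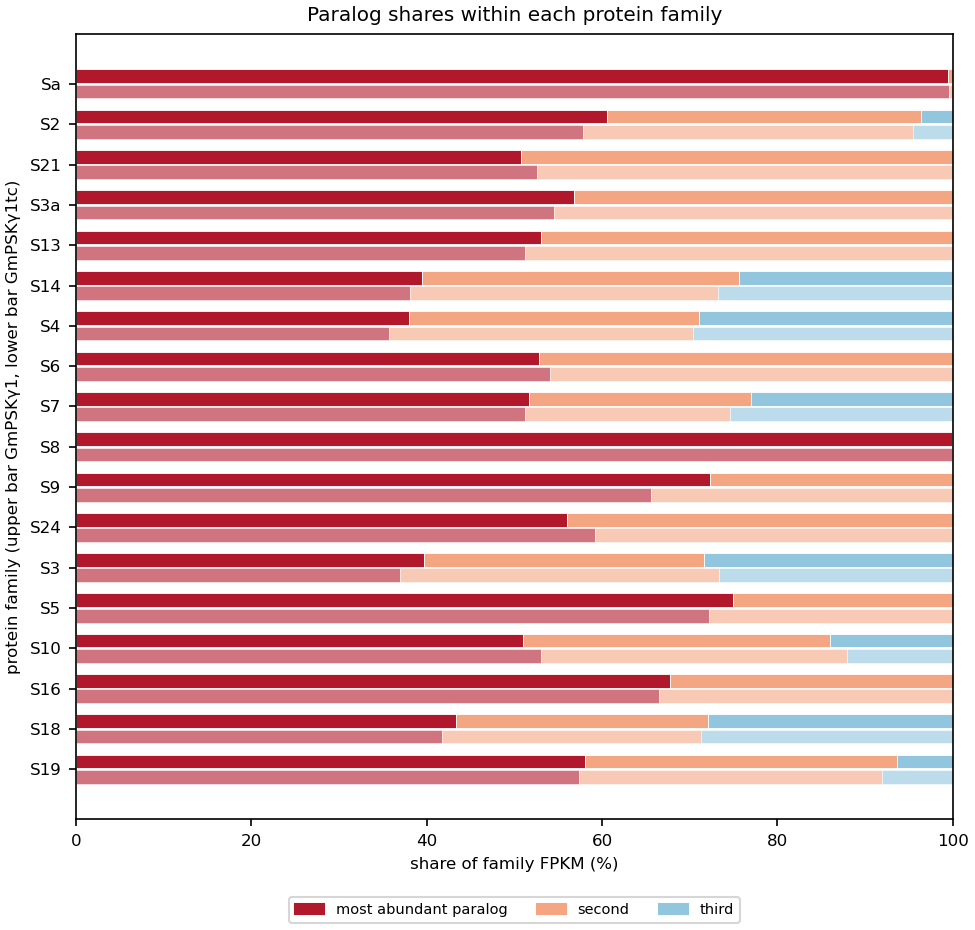
Share of each paralog in the FPKM of its protein family (horizontal axis, percent) for 18 families (vertical axis), with the GmPSKγ1 library as the upper bar and the GmPSKγ1tc library as the lower, paler bar. The same paralog leads in both libraries in each family drawn, and the widest shift is in S9, from 65.5% to 72.3%.

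Other genes of the ribosome were compared from lists chosen by protein. Of 53 further genes listed for the small subunit, 43 reached a mean of 1 FPKM. Of these, 40 were higher in GmPSKγ1 (38 after rescaling without the 50 most abundant genes), 30 of them at least 1.2-fold, and the median log2 ratio was 0.35. UBQ5 (AT3G62250), which encodes S27a fused to ubiquitin, was the most abundant with 597 and 473 FPKM. The S30 gene AT5G56670 had 209 and 107 FPKM, the largest log2 ratio of FPKM + 1 on that list, but its model overlaps another. The S27a gene AT1G23410 came next with 7.33 and 3.55 FPKM. Of 49 measured genes from a list of 51 for the large subunit, 48 were higher (47 after that rescaling), with a median of 0.37. AT3G62870 (L7a) led with 511 and 398 FPKM, BBC1 (AT3G49010, L13) had 255 and 149 FPKM, and PGY2 (AT1G33140, L9) had 111 and 65.6 FPKM. The values of these lists thus lay close to those of the 48 genes. Over all genes, 57.9% were higher and 19.2% at least 1.2-fold higher, and 45.7% were higher after rescaling without the 50 most abundant genes.

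Nuclear genes for the small subunit of the plastid ribosome showed larger ratios. All 13 were higher in GmPSKγ1, beside 57.9% of all genes, each at least 1.2-fold, beside 19.2%, with a median of 0.59. EMB3137 (AT5G14320) had 97.8 and 53.3 FPKM, and AT1G64510 had 102 and 63.0 FPKM. The difference between plastid and cytosolic genes was not tested.

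Genes that assemble ribosomes, or act on ribosomal protein genes, had smaller medians, and most of them were less abundant than the small subunit genes. For comparison, the median was 0.05 over all genes and 0.12 over those of at least 50 FPKM. Of 22 assembly genes, 16 were higher and 6 lower (13 higher after rescaling without the 50 most abundant genes), with a median of 0.13. FIB2 (AT4G25630), which encodes the methyltransferase fibrillarin, had 19.7 and 10.4 FPKM, but its model overlaps another. The Brix domain gene AT1G52930 had 21.5 and 13.7 FPKM. NUC-L1 (AT1G48920), which encodes nucleolin, was the most abundant with 144 and 130 FPKM. Of 7 genes of the TOR and S6 kinase pathway, 5 were lower, beside 42.1% of all genes. Their median log2 ratio of FPKM + 1 was -0.06, and none was past 1.2-fold on that scale. TOR (AT1G50030) had 8.89 and 10.8 FPKM, a plain ratio of 0.821 (counting interval 0.759 to 0.889) that is past 1.2-fold lower without the added 1 FPKM, and LST8-1 (AT3G18140), which encodes a TOR partner and was the most abundant, had 44.8 and 38.3 FPKM. Of 5 genes for factors known to bind these promoters, 3 were higher, close to the 57.9% of all genes. Their median was 0.14, and none was past 1.2-fold on the same scale. PUR ALPHA-1 (AT2G32080) had 40.6 and 41.2 FPKM, TRB3 (AT3G49850) had 22.0 and 18.9 FPKM and TRB1 (AT1G49950) had 30.3 and 26.4 FPKM.

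Markers of the seed and of its cell types were compared beside these values. All 7 storage and oil body genes checked were abundant in both libraries, as in maturing seeds. Of the 7, 6 were lower in GmPSKγ1, beside 42.1% of all genes, with summed levels of 84997 and 101632 FPKM. SESA3 (AT4G27160) was the most abundant with 27054 and 34812 FPKM, CRU2 (AT1G03880) had 6116 and 9733 FPKM, and CRA1 (AT5G44120) had 8831 and 6493 FPKM. The 10 most abundant genes of each library took 16.7% of summed FPKM in GmPSKγ1 seeds and 20.9% in control seeds.

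All 4 genes of dividing cells were higher in GmPSKγ1, beside 57.9% of all genes, with sums of 159 and 119 FPKM. PCNA1 (AT1G07370), the sliding clamp of DNA replication, had 18.7 and 10.3 FPKM. CDKB1;1 (AT3G54180), a mitotic kinase, had 11.4 and 6.67 FPKM, and SYP111 (AT1G08560), the cytokinesis syntaxin KNOLLE, had 121 and 96.0 FPKM. All 4 leaf genes, which green seeds also express, were higher (3 after rescaling by the median ratio), with sums of 3664 and 3185 FPKM. RBCS1A (AT1G67090) had 2421 and 2030 FPKM, and RBCS3B (AT5G38410) had 40.0 and 21.8 FPKM. CAB2 (AT1G29920) had 405 and 403 FPKM, a ratio of 1.005 (counting interval 0.973 to 1.04) that was within counting error of 1. Of 3 seed coat genes 2 were higher (1 after rescaling by the median ratio), with sums of 847 and 902 FPKM. TT10 (AT5G48100) had 597 and 682 FPKM and BAN (AT1G61720) had 117 and 91.1 FPKM. Of 3 endosperm genes 2 reached a mean of 1 FPKM, and none was at 0. MEA (AT1G02580) had 1.73 and 1.45 FPKM and AGL62 (AT5G60440) had 0.917 and 1.097 FPKM, sums of 2.65 and 2.55 FPKM. The part of these markers in the ribosomal protein values was not tested.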

How the data were processed

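RNA of developing seeds was sequenced by the submitters on an Illumina instrument, 1 pooled library of 3 lines per genotype. The deposited values are FPKM per gene model, computed by the authors. Bowtie 0.12.2 and the build TAIR10 are named in the submitters' processing notes. How FPKM was computed, from which annotation release, with or without strand, and what was done with multi-mapped reads is not given in the sources used here. Both tables list the same 33602 models, of which 4329 overlap another.

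Ratios are log2((FPKM + 1)/(FPKM + 1)), GmPSKγ1 over GmPSKγ1tc, for genes whose mean FPKM reached 1. Reads per gene were estimated from the steps between low values of single-exon genes (0.0610 FPKM × kilobase in GmPSKγ1 and 0.0653 in the control). Of those under 200 reads, 99.5% of 636 were whole to within 0.05 in GmPSKγ1 and 99.5% of 627 in the control. Exon lengths came from the TAIR10.1 annotation, cut to the deposited model ends, so the reads are approximate. Exact Clopper-Pearson 95% intervals were computed from them with scipy 1.17.1. The method was run on simulated reads with counting error alone and with the same exon lengths for drawing and recovering them. That run could not test wrong lengths, copied reads or reads shared between genes. Model positions in the text are those of the deposited tables; start and end equal the reference for 10599 models. Promoter sequences and their coordinates are from RefSeq, TAIR10.1. Paralog identity is that of globally aligned coding sequences, and a shared stretch is a run of 50 bases found in the exons of another gene.

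The genes and lists were chosen with earlier results of these data known. Counts and medians of ratios cover the 46 genes that reached the minimum, and interval counts the 44 of these that overlap no other model. Values of 1 of the 48, and of 1 gene on a comparison list, are not reported here. Both values are given for each of the others, and the interval also for the most abundant, the least abundant above 0 and the 6 largest and 6 smallest log2 ratios. From each list the most abundant gene and those with the 2 largest absolute log2 ratios are named. Alternatives were pseudocounts of 0.1 and 5, other minimum levels and 3 rescalings. Leaving out genes with shared stretches, and the group with at least 50 FPKM, were chosen after seeing the data.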

Additional observations from a re-analysis of the deposited data

How the results depend on the processing

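The number of the 48 small subunit genes that were higher in GmPSKγ1 was 45 of 46 measured with either pseudocount and when rescaled to equal sums, 46 of 48 with no minimum (AT1G59359 was 0 in both), 44 of 45 with a minimum mean FPKM of 5 and 44 of 46 when rescaled by the median ratio. Rescaling without the 50 most abundant genes divided the GmPSKγ1 values by 1.06. It lowered the median log2 ratio of the genes to 0.28 and that of the 19 families to 0.28, and left 1 gene at least 1.5-fold higher; the setting shifts all genes alike. The median of all genes reversed to -0.026 under it and to -0.00015 when rescaled by the median ratio, while the median of the small subunit genes stayed 0.30 and 0.31 above it, beside 0.31 as deposited. Over the other settings the median of the small subunit genes ranged from 0.31 to 0.37. Leaving out the 13 genes that share a 50-base stretch with another gene, an alternative chosen after seeing the data, gave 0.37 with 33 of 34 measured genes higher. Of the models whose start and end equal the reference, 2 could be used, and the counting interval excluded 1 for 2 of these, beside 41 of 44 in all; fewer genes were tested. No paired analysis was possible because each genotype has 1 library. With a single pooled library a side, the counting intervals leave out differences between plants, lines, harvests and library preparations.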
